A study of Mus musculus with 22 samples.

Results

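The carbonic anhydrases are a family of zinc enzymes that turn carbon dioxide and water into bicarbonate and a proton, and back. Described here are 7 of the 16 mouse genes of the family that the array measures, Car2, Car3, Car4, Car7, Car12, Car13 and Car14. They were chosen by gene symbol from a list drawn up with earlier results of the same arrays known, so the differences between media and siRNAs given below describe the genes that the list selected on those results and are not tests of them. The 7 genes had 17 of the family's 30 probe sets that carry a single gene symbol, and for each gene the brightest probe set on average over the 22 arrays was read. In all, 18193 genes were measured in this way.

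The samples came from Rex1GFPd2 cells, a mouse embryonic stem (ES) cell reporter line for the naive state in which green fluorescent protein is expressed under control of Rex1 (Zfp42). All cells received an siRNA by reverse transfection, and all were grown in serum-free N2 and B27 medium with PD0325901 (PD), which blocks the kinase MEK. Cells given 1 of 2 siRNA mixes against YAP and TAZ were moved after 24 hours to medium with PD as the only inhibitor (siYAP/TAZ arrays, 4 for each mix, 8 in all). Cells given 1 of 2 control siRNAs either stayed in 2i medium, which holds PD and the GSK3 inhibitor CHIR99021 (2i control, 4 arrays for control siRNA 1 and 3 for control siRNA 2, 7 in all), or were moved after 24 hours to PD-only medium (PD-only control, again 4 and 3 arrays, 7 in all). RNA was taken 72 hours after transfection. No siYAP/TAZ array in 2i medium was analysed here. The 2i and PD-only controls therefore differ in CHIR99021 and in the change of medium, which cannot be told apart, and the siYAP/TAZ arrays differ from 2i control in the siRNA as well. The labels give 1 cell line and call the arrays of a group biological replicates, without saying whether these were separate cultures or experiments, so the errors below measure the spread between these arrays.

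Carbonic anhydrases differ mainly in where they sit. Car2, Car3, Car7 and Car13 are cytosolic, Car4 is held at the outer face of the plasma membrane by a lipid (GPI) anchor, and Car12 and Car14 cross the membrane with the catalytic domain outside. By exchanging carbon dioxide with bicarbonate and protons they work together with bicarbonate transporters and proton exchangers in setting the pH inside and just outside the cell. YAP and TAZ are coactivators of the Hippo pathway that bind DNA through TEAD factors, and CHIR99021 stabilises beta-catenin, the coactivator of TCF/LEF factors.

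Values are log2 expression, so a difference of 1 is a doubling, and levels of different genes are not set against each other because probe sets differ in how strongly they bind. Differences between arms are given with the standard error (SE) of a linear model over all 22 arrays, and a gene is called where limma's moderated test gave a Benjamini-Hochberg adjusted p under 0.05 over all 18193 genes. The target genes followed the siRNA. Yap1 was 1.27 ± 0.03 lower (SE) and Wwtr1, the gene of TAZ, 1.04 ± 0.03 lower with siYAP/TAZ than in PD-only control (limma, adjusted p = 2.61e-18 and 5.32e-17). The mean level of 10 ES cell markers, among them Pou5f1, Sox2 and Nanog, was 12.26 to 12.29 on siYAP/TAZ arrays, 12.35 to 12.40 on 2i control arrays and 12.16 to 12.19 on PD-only control arrays. Against PD-only control, 4 of these markers were called higher and 3 lower with siYAP/TAZ, and 7 higher and 3 lower in 2i control. Over all genes, 61.8% and 58.0% were called in these 2 comparisons. Correlations over genes between arrays of the same arm were 0.9977 to 0.9987.

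Car4, whose enzyme is lipid-anchored, had the lowest difference of all 18193 genes in both comparisons with PD-only control. Car4 (probe set 1448949_at) read 5.07, 5.28 and 5.54 on the siYAP/TAZ arrays (lowest, median and highest), 3.70, 4.11 and 4.23 on the 2i control arrays, and 11.59, 11.63 and 11.75 on the PD-only control arrays. The PD-only control arrays thus stood far above both other arms, with a gap of 6.05 to the highest siYAP/TAZ array and of 7.36 to the highest 2i array, and the siYAP/TAZ arrays all lay above the 2i arrays. Car4 was lower by -6.38 ± 0.07 with siYAP/TAZ than in PD-only control, which is 83.5-fold lower (95% interval of the log2 difference -6.52 to -6.24). In 2i control it was 193-fold lower than in PD-only control (log2 difference -7.59 ± 0.07). Between siYAP/TAZ in PD-only medium and 2i control the difference was 1.21 ± 0.07, a level 2.31-fold higher with siYAP/TAZ. Both comparisons with PD-only control share the same 7 control arrays, so the values are given side by side and no likeness between them is drawn. In RNA from whole cultures, fewer cells that express a gene and less of its RNA per cell cannot be told apart. At low signal, background narrows RMA differences, by an amount that was not measured here.

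**Figure D1:**
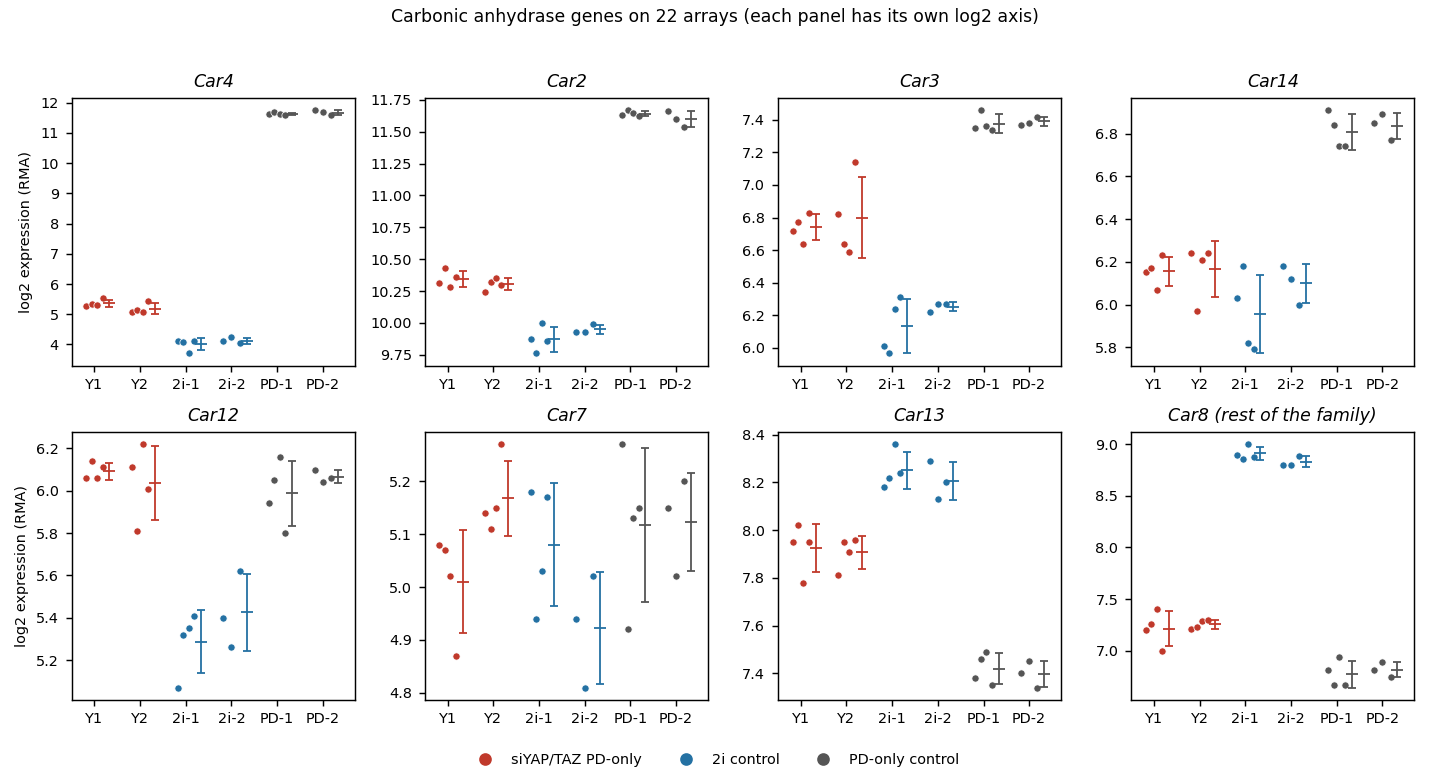
Log2 expression of the 7 listed genes and of Car8 on each of the 22 arrays, 1 point per array, with the mean and SD of each group beside the points; Y1 and Y2 are the siYAP/TAZ mixes in PD-only medium, 2i-1 and 2i-2 the control siRNAs in 2i, PD-1 and PD-2 the control siRNAs in PD-only medium. The panels have separate axes: Car4 spans from 3.70 to 11.75, whereas Car7 stays between 4.81 and 5.27.

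The other listed genes of membrane enzymes moved much less. Car14 read 5.97, 6.19 and 6.24 on siYAP/TAZ arrays, 5.79, 6.03 and 6.18 on 2i control arrays, and 6.74, 6.84 and 6.91 on PD-only control arrays (lowest, median and highest). All PD-only control arrays lay above all others, while the siYAP/TAZ and 2i arrays overlapped. Relative to PD-only control, Car14 was lower by -0.66 ± 0.06 with siYAP/TAZ (1.58-fold lower) and by -0.79 ± 0.06 in 2i control (1.73-fold lower). Its difference between siYAP/TAZ and 2i control, 0.13 ± 0.06 with a 95% interval of 0.01 to 0.25, was not called. Car12, whose enzyme has the same build of an outer catalytic domain on a membrane anchor, had another order of the arms. Car12 read 5.81, 6.09 and 6.22 on siYAP/TAZ arrays, 5.07, 5.35 and 5.62 on 2i control arrays, and 5.80, 6.05 and 6.16 on PD-only control arrays. Here the siYAP/TAZ arrays overlapped with PD-only control, and the 2i arrays lay below both. The difference between siYAP/TAZ and PD-only control was 0.04 ± 0.07, with a 95% interval of -0.10 to 0.18 that leaves room for a small change either way. In 2i control Car12 was lower by -0.67 ± 0.07 than in PD-only control (1.59-fold lower), and with siYAP/TAZ it was 0.71 ± 0.07 higher than in 2i control (1.63-fold higher). Among the 7 genes, Car12 is the one whose arrays separated 2i control from PD-only control but not siYAP/TAZ from PD-only control. The share of all genes with this pattern was not worked out, so it is not read as particular to Car12.

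The start regions of these membrane enzyme genes are shown because Car4 and Car14 were both lower in both arms than in PD-only control, while Car12 was lower in 2i control alone. Each is 300 bases of RefSeq promoter on mouse build GRCm38.p6, from 250 bases before the annotated start to 50 after it, read 5′ to 3′ on the gene's strand, with matches to any of 4 motifs in capitals. The motifs were TEAD GGAATG, TCF/LEF CTTTGAT and AP-1 TGANTCA, and the SRF CArG box, searched on both strands. Car4 is at chr11:84957504-84957803 on the plus strand, Car14 at chr3:95904636-95904935 on the minus strand and Car12 at chr9:66713436-66713735 on the plus strand.
Car4: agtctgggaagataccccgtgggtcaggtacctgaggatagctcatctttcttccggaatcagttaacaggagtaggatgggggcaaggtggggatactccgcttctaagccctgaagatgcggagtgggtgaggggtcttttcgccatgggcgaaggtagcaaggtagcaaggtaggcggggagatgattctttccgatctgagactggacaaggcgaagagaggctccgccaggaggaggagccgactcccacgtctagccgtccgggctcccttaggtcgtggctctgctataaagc
Car14: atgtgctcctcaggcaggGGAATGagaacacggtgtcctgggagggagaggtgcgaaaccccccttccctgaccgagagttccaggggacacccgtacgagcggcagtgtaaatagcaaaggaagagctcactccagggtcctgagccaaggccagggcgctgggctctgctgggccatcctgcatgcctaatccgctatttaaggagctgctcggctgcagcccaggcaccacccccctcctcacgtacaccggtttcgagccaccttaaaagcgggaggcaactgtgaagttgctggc
Car12: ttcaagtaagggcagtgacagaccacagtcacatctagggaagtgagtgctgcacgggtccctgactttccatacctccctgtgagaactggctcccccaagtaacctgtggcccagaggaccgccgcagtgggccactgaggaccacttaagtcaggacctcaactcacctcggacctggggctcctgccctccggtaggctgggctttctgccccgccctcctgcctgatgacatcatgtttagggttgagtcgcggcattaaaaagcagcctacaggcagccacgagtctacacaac
The capitals in the Car14 window are a TEAD match at position -232 from the start, a motif found in 14.663% of all 32851 RefSeq promoters of this length. The Car4 and Car12 windows held no match to the 4 motifs. TCF/LEF matches occurred in 3.729%, AP-1 matches in 7.808% and CArG boxes in 1.629% of all promoters, so a window without any of them is common. A match is a run of letters and does not show binding, and a window without one says nothing of sites elsewhere. The windows had GC contents of 57.3% (Car4), 61% (Car14) and 58.3% (Car12), against a median of 52.7% over all promoters. Promoters were found for 4 of the 7 genes, the fourth being Car7, whose 3 windows held none of the motifs. Car2, Car3 and Car13 were not matched.

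Of the cytosolic enzymes, Car2 is the fast and widely expressed form, best known from red cells, kidney and the acid-secreting osteoclast. Car2 read 10.24, 10.32 and 10.43 on siYAP/TAZ arrays, 9.76, 9.93 and 10 on 2i control arrays, and 11.54, 11.63 and 11.67 on PD-only control arrays. No arms overlapped, and the siYAP/TAZ arrays lay between the 2i and the PD-only controls. Relative to PD-only control, Car2 was lower by -1.30 ± 0.03 with siYAP/TAZ (2.46-fold lower) and by -1.71 ± 0.03 in 2i control (3.27-fold lower), and it was 0.41 ± 0.03 higher with siYAP/TAZ than in 2i control (1.33-fold).

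Car3, a form of low activity that is abundant in skeletal muscle and fat, showed the same order of the arms. It read 6.59, 6.75 and 7.14 on siYAP/TAZ arrays, 5.97, 6.24 and 6.31 on 2i control arrays, and 7.34, 7.37 and 7.46 on PD-only control arrays. The highest siYAP/TAZ array stood apart from the other 7 of its arm, which ended at 6.83, and still lay 0.20 below the lowest PD-only control array. Relative to PD-only control, Car3 was lower by -0.62 ± 0.07 with siYAP/TAZ (1.53-fold lower) and by -1.19 ± 0.07 in 2i control (2.28-fold lower). With siYAP/TAZ it was 0.58 ± 0.07 higher than in 2i control.

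Car13, a cytosolic form found in many tissues, was the one listed gene that was higher in both other arms than in PD-only control. It read 7.78, 7.95 and 8.02 on siYAP/TAZ arrays, 8.13, 8.22 and 8.36 on 2i control arrays, and 7.34, 7.40 and 7.49 on PD-only control arrays. Again no arms overlapped, but the order was turned round, with 2i control highest. Relative to PD-only control, Car13 was higher by 0.51 ± 0.04 with siYAP/TAZ (1.42-fold) and by 0.82 ± 0.04 in 2i control (1.77-fold), and it was lower by -0.31 ± 0.04 with siYAP/TAZ than in 2i control. Car7, the cytosolic form known from neurons, read 4.87, 5.10 and 5.27 on siYAP/TAZ arrays, 4.81, 5.02 and 5.18 on 2i control arrays, and 4.92, 5.15 and 5.27 on PD-only control arrays. All 3 arms overlapped. Its differences from PD-only control were -0.03 ± 0.05 with siYAP/TAZ (95% interval -0.14 to 0.08) and -0.12 ± 0.06 in 2i control (-0.24 to -0.0016), and that between siYAP/TAZ and 2i control was 0.09 ± 0.05 (-0.03 to 0.20). None of them was called.

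Car13, Car3 and Car2 lie in a cluster on chromosome 3. It runs over 259 kb in GRCm38.p6, with Car13 at chr3:14641727-14663002, Car1 at chr3:14766214-14808365, Car3 at chr3:14863538-14872381 and Car2 at chr3:14886269-14900770. Car3 and Car2, which are direct neighbours among the coding genes, were lower in siYAP/TAZ and in 2i control than in PD-only control, while Car13 at the other end was higher. Car1 between them, the abundant form of red cells, showed differences from PD-only control of 0.10 ± 0.07 with siYAP/TAZ and 0.15 ± 0.08 in 2i control, neither of which was called (limma, adjusted p = 0.25 and 0.109). Car14 is on the same chromosome but far off, at chr3:95897768-95905117.

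In counts, siYAP/TAZ against PD-only control gave 5 of the 7 genes as called, Car13 higher and Car2, Car3, Car4 and Car14 lower. Over all genes 61.8% were called, 35.5% higher and 26.3% lower, and 4.47% were lower by 1 or more, as Car4 and Car2 were. For 2i control against PD-only control, 6 of the 7 were called, Car13 higher and Car2, Car3, Car4, Car12 and Car14 lower. Over all genes 58.0% were called, 31.3% higher and 26.7% lower, and 4.12% were lower by 1 or more, as were Car4, Car2 and Car3. For siYAP/TAZ against 2i control, 5 of the 7 were called, Car13 lower and Car2, Car3, Car4 and Car12 higher, against 48.3% of all genes, 25.5% higher and 22.8% lower. The median difference of the 7 genes was -0.62, -0.79 and 0.41 in the same order of comparisons, against 0.06, 0.04 and 0.02 over all genes. The list was drawn up with these contrasts in view, so nothing is read from these counts.

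**Figure D2:**
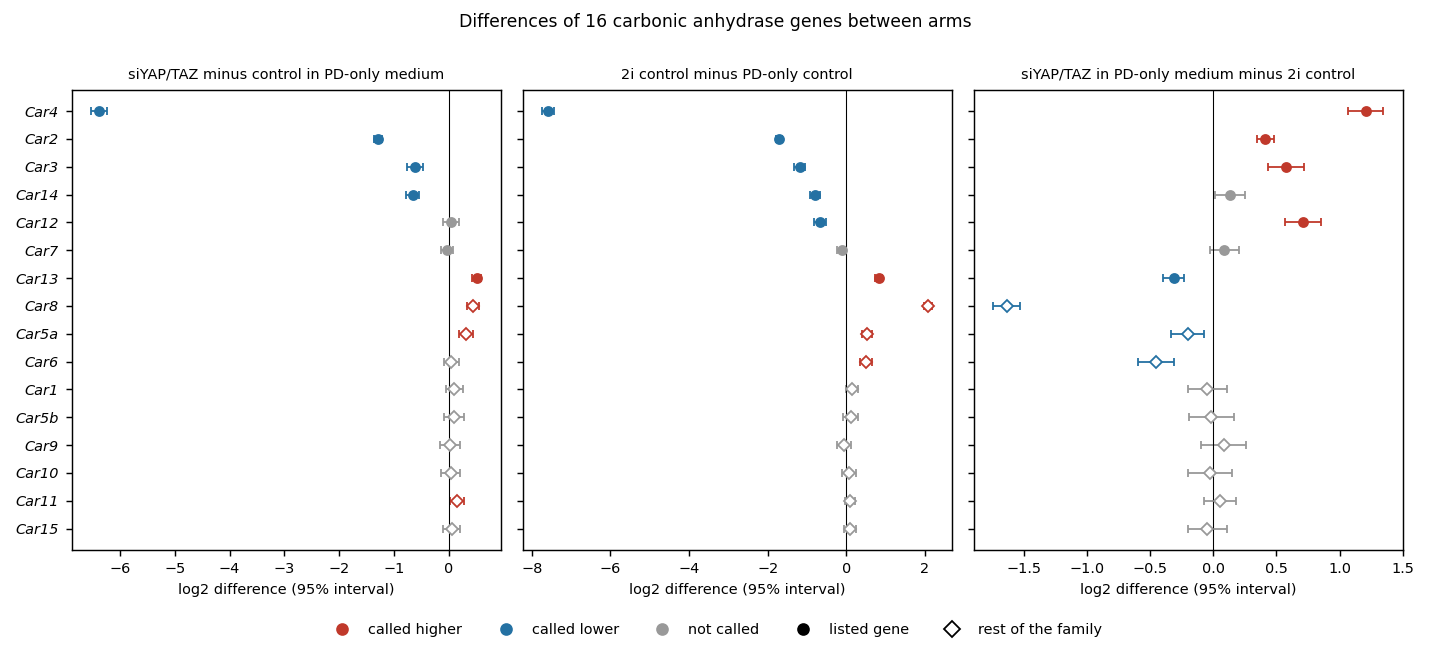
Log2 differences of the 16 carbonic anhydrase genes in 3 comparisons, with 95% intervals; circles are the listed genes, diamonds the rest of the family, red marks genes called higher, blue genes called lower and grey genes not called, and the axes differ between panels. Car4 stands at -6.38 and -7.59 in the left and middle panels, and Car8 at -1.63 in the right panel lies opposite to Car4 at 1.21.

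The choice of siRNA within a kind was not used in drawing up the list, and here the genes can be tested. Between the siYAP/TAZ mixes the 7 genes differed by -0.16 to 0.18 on the log2 scale. Between the control siRNAs they differed by -0.15 to 0.16 in 2i medium and by -0.08 to 0.04 in PD-only medium. The effect of 2i against PD-only medium with control siRNA 1 differed from that with control siRNA 2 by -0.12 to 0.16. None of the 7 genes, and 0% of all genes, was called by limma in any of these 4 contrasts. At an unadjusted p under 0.05, limma gave 649 of all genes between the mixes (3.57%), 1450 between controls in 2i (7.97%), 769 between controls in PD-only medium (4.23%) and 949 for the difference of effects (5.22%). Of the 7 genes this held for Car7 between the mixes alone (difference -0.16 ± 0.07, unadjusted p = 0.0446). For Car4, mix 1 gave 5.36 ± 0.12 and mix 2 gave 5.18 ± 0.18 (SD, n = 4 arrays each), a difference of 0.18 ± 0.09 (95% interval -0.01 to 0.37) that is small beside its distance from PD-only control. The intervals still leave room for small differences between siRNAs.

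Several genes have more than 1 probe set, which read different stretches of the transcript. The second Car4 probe set, 1418094_s_at, was lower, against PD-only control, by -5.38 with siYAP/TAZ and by -6.18 in 2i control. All 3 Car13 probe sets were higher, by 0.51, 0.60 and 0.69 with siYAP/TAZ and by 0.82, 0.83 and 1.07 in 2i control. Car4 and Car13 thus moved the same way on every probe set, tested over 34945 probe sets. For Car3, the brightest of 4 probe sets gave by far the largest differences, since 1460256_at differed by -0.12 and -0.19 and 1430584_s_at by -0.22 and -0.25, and the dimmest, 1453588_at, was called in neither comparison (0.14 and 0.05). The mean of all Car3 probe sets gave -0.20 with siYAP/TAZ and -0.40 in 2i control. For Car12, neither dimmer probe set was called against PD-only control, and the mean of its 3 probe sets gave 0.11 with siYAP/TAZ and -0.24 in 2i control against PD-only control, and 0.34 for siYAP/TAZ against 2i control. With that mean, Car12 was called higher with siYAP/TAZ than in PD-only control, which its brightest probe set was not. For Car7, 1443824_s_at was lower by -0.41 with siYAP/TAZ and by -0.50 in 2i control, whereas the brightest probe set was not called. The statements on Car3, Car12 and Car7 therefore rest on the probe set chosen. Car2 and Car14 have 1 probe set each. Probe sets whose names end in _s_at or _x_at can bind more than 1 transcript, which holds for that of Car14 (1450725_s_at), the second of Car4, the Car7 probe set that was lower, 1430584_s_at of Car3 and the dimmest of Car12 (1447762_x_at).

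**Figure D3:**
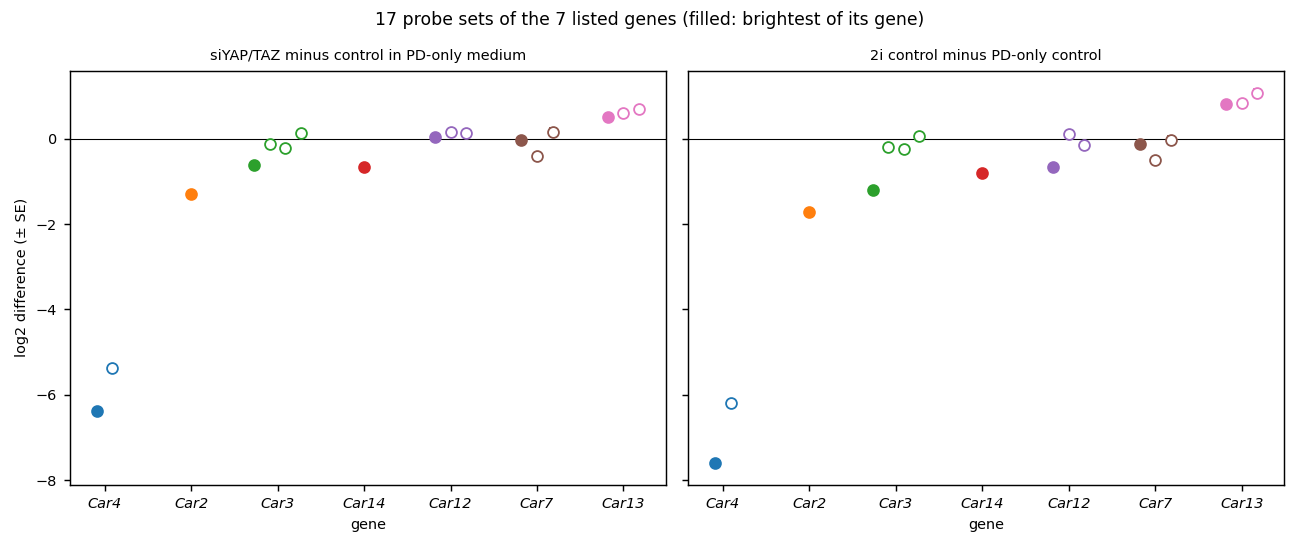
Log2 differences from PD-only control of the 17 probe sets of the 7 listed genes, siYAP/TAZ on the left and 2i control on the right; filled points are the brightest probe set of a gene, open points the others in order of falling mean, and SE bars are about the size of the points. In both panels the 2 Car4 probe sets lie below 0 and the 3 Car13 probe sets above 0. The Car3 probe sets lie on both sides of 0 in both panels, and those of Car7 do so in the left panel.

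The rest of the family has 9 genes, of which Car8 changed most. These 9 are what the list left over, and it was drawn up with these contrasts known. The adjusted p values given for them, here and in other paragraphs, describe these genes and are not tests of them. Car8, Car10 and Car11 code for related proteins that lack a complete zinc site and have no carbonic anhydrase activity. Car8 read 7.0, 7.25 and 7.40 on siYAP/TAZ arrays, 8.80, 8.88 and 9.0 on 2i control arrays, and 6.67, 6.81 and 6.94 on PD-only control arrays. The 2i arrays stood clear of both others, and the siYAP/TAZ arrays lay just above PD-only control with a gap of 0.06. Relative to PD-only control, Car8 was higher by 0.44 ± 0.05 with siYAP/TAZ (limma, adjusted p = 1.96e-07) and by 2.08 ± 0.05 in 2i control (4.21-fold, adjusted p = 5.42e-18), and lower by -1.63 ± 0.05 with siYAP/TAZ than in 2i control (adjusted p = 7.59e-16). Car8 was 57th from the top of all genes in 2i against PD-only control and 17th from the bottom in siYAP/TAZ against 2i control, while Car4 was 62nd from the top there. The mean over the 3 Car8 probe sets gave smaller differences, 0.16 with siYAP/TAZ and 0.89 in 2i control against PD-only control, and -0.73 for siYAP/TAZ against 2i control.

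The mitochondrial Car5a was 0.32 ± 0.06 higher with siYAP/TAZ and 0.52 ± 0.06 higher in 2i control than in PD-only control (limma, adjusted p = 0.000137 and 5.21e-07). The secreted Car6 was 0.50 ± 0.07 higher in 2i control than in PD-only control (adjusted p = 3.78e-06) and lower by -0.45 ± 0.07 with siYAP/TAZ than in 2i control (adjusted p = 1.13e-05). With control siRNA 2 alone the Car6 difference between the media was 0.23 and was no longer called. Car11 was 0.15 ± 0.06 higher with siYAP/TAZ than in PD-only control (adjusted p = 0.0381), a call lost under 7 of 12 other settings that left out no single array and under 8 of 22 that left out 1 (adjusted p up to 0.56). Car1, Car5b, Car9, Car10 and Car15 were called in none of the 3 comparisons. Car9, a membrane form known as a target of the hypoxia response, showed differences from PD-only control of 0.02 ± 0.09 with siYAP/TAZ and -0.06 ± 0.09 in 2i control (95% intervals -0.15 to 0.20 and -0.24 to 0.13). Over all 16 genes, 4 were called higher and 4 lower with siYAP/TAZ, and 4 higher and 5 lower in 2i control, against PD-only control, where 61.8% and 58.0% of all genes were called.

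The genes with the nearest profiles were found by the root mean square distance between the 6 group means, each gene centred on its own mean, for the listed genes whose group means spanned at least 1. Car4 (span 7.67) was nearest to Acta1, the skeletal muscle actin (distance 0.244), S100a6, a calcium-binding protein (0.293), and Krt8, a keratin of simple epithelia (0.383). For Car2 (span 1.77) these were the LIM protein gene Crip2 (0.0291), the microtubule-associated protein gene Map7d1 (0.0302) and the ephrin ligand gene Efnb2 (0.0473). Car3 (span 1.26) was nearest to Smad6, an inhibitor of BMP signalling (0.0426), Cdh2, the gene of N-cadherin (0.0435), and Gng10, a G protein subunit gene (0.0512). The distances rest on 22 arrays and describe only likeness of the differences between groups, since each gene's own level is taken out by the centring.

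**Figure D4:**
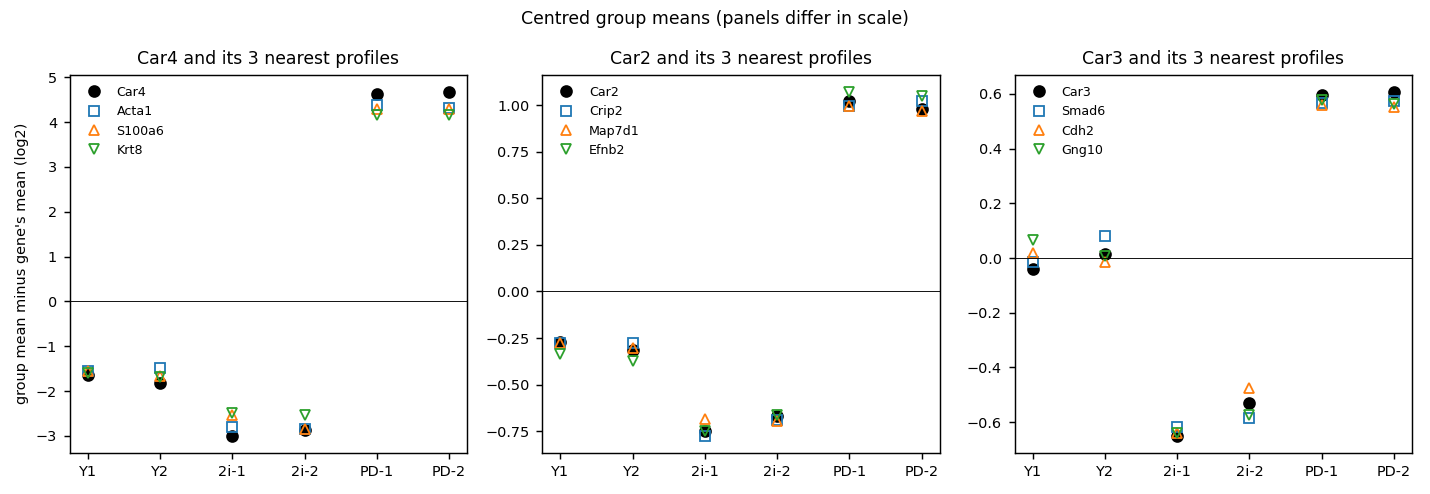
Group means of Car4, Car2 and Car3 and of their 3 nearest genes, each centred on the gene's own mean over the 6 groups (log2), with groups named as Y1 and Y2 for siYAP/TAZ mixes, 2i-1 and 2i-2 for controls in 2i and PD-1 and PD-2 for controls in PD-only medium. In each panel the PD-only controls lie highest, 2i controls lowest and siYAP/TAZ between them, over a span of 7.67 for Car4, 1.77 for Car2 and 1.26 for Car3.

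Carbonic anhydrases work with transporters of bicarbonate, protons and lactate, and these were counted from lists drawn up with earlier results known. Genes named here and in the next paragraph were picked as called genes with the largest differences of their lists. Their adjusted p values therefore describe chosen genes and are not tests of them. Of 13 bicarbonate and anion exchangers measured, 6 were higher and 3 lower with siYAP/TAZ, and 3 were higher and 4 lower in 2i control, than in PD-only control (medians 0.21 and 0.01). The sodium bicarbonate cotransporter gene Slc4a4 was lower by -2.22 ± 0.07 with siYAP/TAZ and by -2.13 ± 0.07 in 2i control (limma, adjusted p = 1.21e-16 and 5.06e-16). Its relative Slc4a5 was higher, by 1.08 ± 0.03 and 1.15 ± 0.03 (adjusted p = 7.67e-17 and 5.46e-17). Slc4a1, the anion exchanger of red cells, was 1.13 ± 0.09 higher with siYAP/TAZ than in PD-only control (adjusted p = 7.01e-10).

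Of 13 sodium-proton exchangers and lactate transporters, 4 were higher and 5 lower with siYAP/TAZ, and 3 were higher and 5 lower in 2i control, than in PD-only control. Emb, the gene of embigin, a membrane partner of lactate transporters, was lower by -1.74 ± 0.03 with siYAP/TAZ and by -3.08 ± 0.04 in 2i control. The lactate exporter gene Slc16a3 was lower by -0.32 ± 0.08 and -1.54 ± 0.09. All 4 of these differences passed (limma, highest adjusted p = 0.00225). Of 17 proton pump genes, 8 were higher and 5 lower with siYAP/TAZ, and 12 were higher and 2 lower in 2i control. Atp12a, a proton-potassium pump, was lower by -1.28 ± 0.11 with siYAP/TAZ and 1.03 ± 0.11 higher in 2i control than in PD-only control (adjusted p = 2.23e-09 and 1.17e-07). Of 11 aquaporins, 4 were higher and none lower with siYAP/TAZ, and 3 were higher and 1 lower in 2i control. Of 14 hypoxia targets, 8 were higher and 5 lower with siYAP/TAZ (median 0.21), and 2 were higher and 10 lower in 2i control (median -0.45). The glucose transporter gene Slc2a1 was lower by -1.16 ± 0.03 and -1.49 ± 0.03, whereas Pdk1 was 1.04 ± 0.04 higher with siYAP/TAZ. These shares stand against the 35.5% higher and 26.3% lower, and 31.3% higher and 26.7% lower, over all genes. Between siYAP/TAZ and 2i control, 13 hypoxia targets were higher with siYAP/TAZ and 1 lower, against 25.5% and 22.8% of all genes.

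Some markers of other cell types moved with the arms. The counts stand against 26.3% of all genes lower and 35.5% higher with siYAP/TAZ, and 26.7% lower and 31.3% higher in 2i control, than in PD-only control. Of 10 fibroblast markers, 7 were lower with siYAP/TAZ and 8 in 2i control than in PD-only control, none higher, and their mean level was 4.75 to 4.89 on siYAP/TAZ arrays, 4.61 to 4.78 on 2i control arrays and 6.35 to 6.46 on PD-only control arrays. Of 9 trophoblast markers, 4 were lower and 2 higher with siYAP/TAZ and 5 lower and 1 higher in 2i control, at mean levels of 5.90 to 6.03, 5.71 to 5.76 and 6.62 to 6.73 (siYAP/TAZ, 2i control and PD-only control). Of 12 primitive endoderm markers, 5 were lower and 2 higher with siYAP/TAZ and 6 lower and 2 higher in 2i control, at 5.57 to 5.71, 5.69 to 5.78 and 6.50 to 6.60. The list means of these 3 cell types were highest in PD-only control. Car4, Car2, Car3 and Car14 were highest there too, whereas Car13 was lowest there, and Car12 and Car7 overlapped with siYAP/TAZ. In every arm, 9 of the 12 primitive endoderm markers had a mean below the median of all genes. The median difference with siYAP/TAZ was -1.29 for fibroblast markers but -0.08 for trophoblast and -0.09 for primitive endoderm markers. Genes with large differences there were Krt7 (-4.33), Gata3 (-3.13), Col4a1 (-3.83) and Dab2 (-3.57), while Cdx2 was 1.07 higher, and the part of these cell types in the differences of these genes was not tested. RMA gives no detection call, so none of these markers can be called absent.

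Markers of cells in which carbonic anhydrases are known to be abundant were counted as well, against 61.8% of all genes called with siYAP/TAZ and 58.0% in 2i control. Of 11 erythroid markers, 3 were higher and 2 lower with siYAP/TAZ and 3 lower in 2i control, at mean levels of 4.60 to 4.80, 4.13 to 4.23 and 4.17 to 4.36. Of 11 muscle and adipocyte markers, 3 were higher and 3 lower with siYAP/TAZ and 4 lower in 2i control, at 4.57 to 4.67, 4.48 to 4.56 and 4.64 to 4.74. Of 10 osteoclast and macrophage markers, 3 were higher and 1 lower with siYAP/TAZ and 1 higher and 2 lower in 2i control, at 4.67 to 4.79, 4.60 to 4.68 and 4.69 to 4.77. Of 10 renal and gut epithelium markers, 3 were higher and 2 lower with siYAP/TAZ and 5 higher and 1 lower in 2i control, at 4.14 to 4.25, 4.10 to 4.23 and 3.93 to 4.11. The erythroid list mean was higher on all siYAP/TAZ arrays than on the arrays of the other arms. With siYAP/TAZ against PD-only control, the globin genes Hbb-bh1 and Hba-x of that list were 3.72 and 1.87 higher. The median difference of the list was 0.06, and Gata1 was lower by -0.76.

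On the arrays, Actb has control probe sets near the 3′ and the 5′ end of its transcript, and their difference widens with RNA degradation. It was 0.975 ± 0.062 on siYAP/TAZ arrays (SD, n = 8), 0.966 ± 0.104 on 2i control arrays (n = 7) and 0.717 ± 0.035 on PD-only control arrays (n = 7). It was 0.258 higher with siYAP/TAZ and 0.249 higher in 2i control than in PD-only control (two-sided exact permutation p = 0.000311 and 0.000583, or 0.00105 each when adjusted over 9 quality comparisons). The same difference for Gapdh was 0.058 higher with siYAP/TAZ and 0.063 higher in 2i control than in PD-only control (two-sided exact permutation p = 0.00155 and 0.000583, or 0.00233 and 0.00105 when adjusted). With the Actb measure as a covariate, the Car4 differences from PD-only control were -6.17 ± 0.12 with siYAP/TAZ and -7.38 ± 0.12 in 2i control, those of Car2 -1.33 ± 0.06 and -1.74 ± 0.06, those of Car3 -0.56 ± 0.13 and -1.14 ± 0.13, those of Car14 -0.48 ± 0.10 and -0.62 ± 0.10, those of Car13 0.59 ± 0.08 and 0.90 ± 0.08, those of Car12 -0.10 ± 0.13 and -0.81 ± 0.13, and those of Car7 -0.07 ± 0.11 and -0.15 ± 0.11. With this covariate, Car5a and Car11 with siYAP/TAZ were no longer called (0.13 and 0.09, limma, adjusted p = 0.364 and 0.56). The Actb measure was 0.66 to 0.75 on PD-only control arrays, 0.88 to 1.07 on siYAP/TAZ arrays and 0.87 to 1.19 on 2i control arrays. PD-only control thus overlapped with neither other arm, so the covariate fit cannot separate RNA quality from the arm. The part of RNA quality in these differences was not tested.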

How the data were processed

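Total RNA of 22 samples was hybridised to 1-colour Affymetrix mouse arrays after biotin labelling with a 3′ kit, per the labels' protocols. The deposited values were made by the authors with RMA, per the submitters' processing notes, and are read as log2 values per probe set, going by the tool's name and by their range of 2.09 to 14.91. RMA usually equalises the distributions of arrays, which hides any shift in the total RNA of a cell. The number of arrays limits the precision. No scan date was used, and an array batch that coincides with an arm would look like that arm's effect.

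Of 45101 probe sets, the platform annotation gave 1 gene symbol for 34945, several for 932 and none for 9160, with 64 control probe sets left out. Each of 18193 genes was read from its probe set with the highest mean. The 6 combinations of siRNA and medium each got a mean in a linear model, fitted by lmFit and eBayes of limma 3.58.1 (R 4.3.3), with residual df 16 and prior df 3.1. An arm is the equally weighted mean of its siRNA groups. A call needed an adjusted p under 0.05 (Benjamini-Hochberg), and the step was tested on simulated data. Array quality was compared with exact permutation tests. Named were the 16 family genes, the siRNA targets, the 3 nearest profiles of each listed gene with a span of at least 1, and leading called genes of each list. Members and lists were chosen with earlier results of these data known. Coordinates and promoters are RefSeq's on GRCm38.p6, the platform probe annotation having no coordinates here. Alternatives covered the choice of probe set, dim genes, normalization, variance model, array weights, arrays in the fit, pooled siRNAs, each siRNA alone, the replicate letter, RNA quality and each array left out. Tables and figures were made with pandas 2.3.3, scipy 1.17.1 and matplotlib 3.10.9 in Python 3.11.15.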

Additional observations from a re-analysis of the deposited data

Results flagged for a closer look

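Each of the 7 listed genes was looked at in the groups of 4 arrays and in the arms of 7 or 8, which makes 49 combinations of a gene and a set of arrays. In 6 of them the highest or lowest array lay far enough from the others to pass Dixon's 95% limit, where chance flags about 1 in 20. Car4 read 3.7 on control siRNA 1 array C in 2i medium, the lowest both of its 4 arrays and of the 7 2i control arrays. Car4 read 5.44 on siYAP/TAZ mix 2 array D, the highest of its 4 arrays, and Car3 read 7.14 on the same array, the highest of the 8 siYAP/TAZ arrays. Car3 read 7.46 on control siRNA 1 array B in PD-only medium, the highest of its 4 arrays. Car14 read 5.97 on siYAP/TAZ mix 2 array B, the lowest of its 4 arrays. No direction or call of Car3 or Car4 between the arms changed when any single array was left out. Without siYAP/TAZ mix 2 array B, Car14 was 0.17 higher with siYAP/TAZ than in 2i control and was called, which it was not with all arrays. That array was picked from these same Car14 values, so nothing is read from the changed call.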

How the results depend on the processing

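Under 35 other settings, 22 of which left out an array, no called difference of a family gene changed direction. The number of genes called stayed between 7796 and 10914 for 2i against PD-only control, 8204 and 11612 for siYAP/TAZ against PD-only control, and 7384 and 8894 for siYAP/TAZ against 2i control. Of the 7 listed genes, 5 to 7, 5 to 7 and 5 to 6 were called, and no listed gene that was called lost its call where it was tested. Car14 was called for siYAP/TAZ against 2i control under 5 settings that left out no single array, among them control siRNA 1 alone (0.21). It was also called under 3 that did (0.15 to 0.17). With the mean of all probe sets, Car7 was called lower in 2i control (-0.22) and with siYAP/TAZ (-0.10) than in PD-only control. That setting also called Car12 higher with siYAP/TAZ than in PD-only control (0.11). In 2i against PD-only control, Car7 was called under 3 settings that left out an array (-0.15 to -0.14). For siYAP/TAZ against 2i control, Car7 was called under 2 that left out no single array (0.12 and 0.17). Where dim genes were left out, 9707 of the 18193 genes were tested, so counts of genes called there are not on the same total. Of the 7 listed genes, 5 were tested there, all but Car7 and Car12. In the rest of the family, Car11 with siYAP/TAZ lost its call under many settings, Car5a with siYAP/TAZ with the Actb covariate (0.13), and Car5a for siYAP/TAZ against 2i control with control siRNA 1 alone (-0.16). The largest shifts came from averaging the probe sets of a gene, as given for Car3, Car12 and Car8. With the replicate letter as a replicate block, 10542, 11261 and 8714 genes were called, against 10559, 11250 and 8791 without it, with 7, 5 and 5 listed genes, and Car7 in 2i against PD-only control (-0.12) was then called. The labels do not say whether a letter links arrays of different groups. Of 51 same-letter pairs, 2 correlated above 0.1 (range -0.08 to 0.12), and 9 of 22 arrays matched their own letter best. No chance level was worked out for these counts, so whether the letters pair the arrays is not settled. RMA values have no detection call, so signal over background could not be set for dim genes such as Car7.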

Other observations

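The poly-A controls, which are added to the RNA before labelling, read 8.33 ± 0.13 on siYAP/TAZ arrays (SD, n = 8), 8.85 ± 0.15 on 2i control arrays and 8.43 ± 0.17 on PD-only control arrays (n = 7 each). They were 0.42 higher in 2i control than in PD-only control (two-sided exact permutation p = 0.000583, or 0.00105 after adjustment over 9 tests). With siYAP/TAZ they differed from 2i control by -0.52 (exact permutation p = 0.000311, or 0.00105 after adjustment) and from PD-only control by -0.10 (exact permutation p = 0.205).

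Of 11 erythroid markers, 3 were higher with siYAP/TAZ than in PD-only control, 2 lower and 6 not called, at a median difference of 0.06. The embryonic globin genes Hbb-bh1 and Hba-x were 3.72 ± 0.08 and 1.87 ± 0.08 higher with siYAP/TAZ than in PD-only control (limma, adjusted p = 3.33e-19 and 1.75e-14), while Gata1, a regulator of the lineage, was lower by -0.76 ± 0.07 (adjusted p = 2.19e-09). In the renal and gut epithelium list the largest differences ran both ways. The genes named from these lists were picked as called genes with the largest differences, so their adjusted p values are not tests of them. The intestinal regulator gene Cdx1 was 1.96 ± 0.07 higher with siYAP/TAZ and 1.42 ± 0.07 higher in 2i control than in PD-only control (adjusted p = 9.96e-16 and 4.33e-13), and the keratin gene Krt20 was lower by -0.88 ± 0.09 and -0.83 ± 0.09 (adjusted p = 2.71e-08 and 1.43e-07).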
